A study of Mus musculus with 2 samples.

Results

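Age differences in DNA methylation signal in the mouse hypothalamus were examined in 3 genomic windows named after imprinted gene clusters. The windows are the H19-Igf2 to Kcnq1-Cdkn1c region on chromosome 7 (142200000 to 143700000), the Dlk1-Meg3 region on chromosome 12 (109700000 to 110400000) and the Gnas region on chromosome 2 (173600000 to 174400000), all on genome build mm8. Probes belonged to a window when their start lay inside it, which gave 241 of the 90526 probes. These formed 47 of the 21369 probe runs, and the 44 runs of at least 2 probes, called intervals here, were tested. An interval joins probes separated by gaps of at most 500 bp. The deposited files name no genes and no mm8 gene annotation was used, so the windows carry the names of the clusters they are taken to hold, and no interval was placed in a gene, exon or regulatory region.

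Genomic DNA was taken from the hypothalamus of female mice at postnatal day 21 (P21, about weaning) and on the day of birth (P0). Animals of both ages were non-agouti and of a mixed C57BL/6J and C3H/HeJ background. The ages were hybridised together on 2 two-colour Agilent tiling arrays, A and B. P21 DNA was labelled with Cy3 and P0 DNA with Cy5 on array A, and the dyes were exchanged on array B. The arrays are described as biological replicates, with no number of animals per array and no word on pooling. P-values here rest on the spread between these 2 arrays, pooled in part over all intervals, which may be technical. The DNA came from the whole dissected hypothalamus, so a change in the mixture of cells and a change within cells cannot be told apart.

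Imprinted clusters hold genes expressed only or mainly from 1 parental chromosome. These genes are under the control of regions whose methylation differs between the maternal and the paternal copy. Such control regions are methylated on 1 parental copy in somatic tissues throughout life. Igf2, a fetal growth factor, and H19, a non-coding RNA, are controlled by a region methylated on the paternal copy, and Kcnq1ot1, a non-coding RNA that silences Cdkn1c and other genes in cis, starts in a region methylated on the maternal copy. Dlk1, a transmembrane protein that holds back differentiation, and Meg3, a non-coding RNA, share a paternally methylated control region. Gnas encodes the stimulatory G protein alpha subunit, and its locus has several promoters with opposite parental methylation.

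The assay reads methylation at CCCGGG, the recognition sequence of SmaI and XmaI. As general background, SmaI leaves blunt ends at unmethylated copies, and XmaI afterwards leaves sticky ends at methylated ones. Adaptors are ligated to sticky ends only, and amplification then favours fragments bounded by methylated sites. A log2 ratio of P21 over P0 above 0 is therefore more signal from such fragments at P21, relative to the median of the array. It is not a methylation percentage and does not tell the parental copies apart. Of 22 genes listed for these clusters, 15 had promoter sequence in the RefSeq table for GRCm38.p6 (22 promoters of 300 bases). The motif CCCGGG, which reads the same on both strands, was found in 1 of these promoters, against 13.5% of the 32851 promoters in the table. That promoter is 1 of 4 listed for Gnas, and the stretch with the recognition site is printed to show what the enzymes read. It lies at chr2:174329756-174329821 of GRCm38.p6 on the plus strand, the capitals mark CCCGGG, and no probe was matched to it because the builds differ.
Gnas promoter: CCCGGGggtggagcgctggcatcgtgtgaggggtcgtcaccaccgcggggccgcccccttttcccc

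Signal was higher at P21 in 11 of the 44 intervals and lower in 1 (limma, Benjamini-Hochberg adjusted p under 0.05 over all 18761 intervals of the arrays). Across the whole array 7.65% of intervals were called higher and 3.99% lower. The 11 higher intervals lay in all 3 windows, with 4 of 8 in the Dlk1-Meg3 window, 5 of 25 in the H19-Igf2 to Kcnq1-Cdkn1c window and 2 of 11 in the Gnas window. The 4 of the Dlk1-Meg3 window include interval 4, where only 1 of 4 probes was well above background in every channel. The lower interval lay on chromosome 7. The share in the Dlk1-Meg3 window depends on its edges: 4 of 14 intervals were called higher with the window widened by 100 kb at both ends, and 2 of 5 with it narrowed by as much. A rule of size asked for a mean log2 ratio of 1 or more in either direction and at least a 1.5-fold difference the same way on each array. It was met by 3 higher and 0 lower intervals, against 3.71% and 0.501% of all intervals (no test). The calls depended on the processing. With normexp background correction and no loess only intervals 1 and 9 of the chromosome 12 window passed. The rule of size was still met by 3 higher intervals with this setting. How many intervals of the whole array passed with it is not given here. The log2 ratio of interval 18 of the chromosome 7 window was 1.34 there, against 1.16 as reported, with a limma adjusted p of 0.0597. Intervals 4 and 17 of that window and interval 1 of the chromosome 2 window had 0.91, 0.60 and 0.80, against 0.71, 0.61 and 0.65. Other lost calls did not keep their ratio. With this setting interval 4 of the chromosome 12 window had -0.22 and interval 2 of the chromosome 2 window -0.019. For interval 3 of the chromosome 7 window the lowest log2 ratio over all alternatives was 0.11. When each interval was given by the median of its probes, 6 calls were lost, those of intervals 3, 4 and 17 of the chromosome 7 window, interval 4 of the chromosome 12 window and intervals 1 and 2 of the chromosome 2 window. Of these, intervals 4 and 17 of chromosome 7 and interval 1 of chromosome 2 had log2 ratios of 0.72, 0.63 and 0.69 by that median, close to the reported ones, with limma adjusted p of 0.0524, 0.0678 and 0.053. These counts are descriptions of the windows, whose differences from the rest of the genome were not tested.

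**Figure D1:**
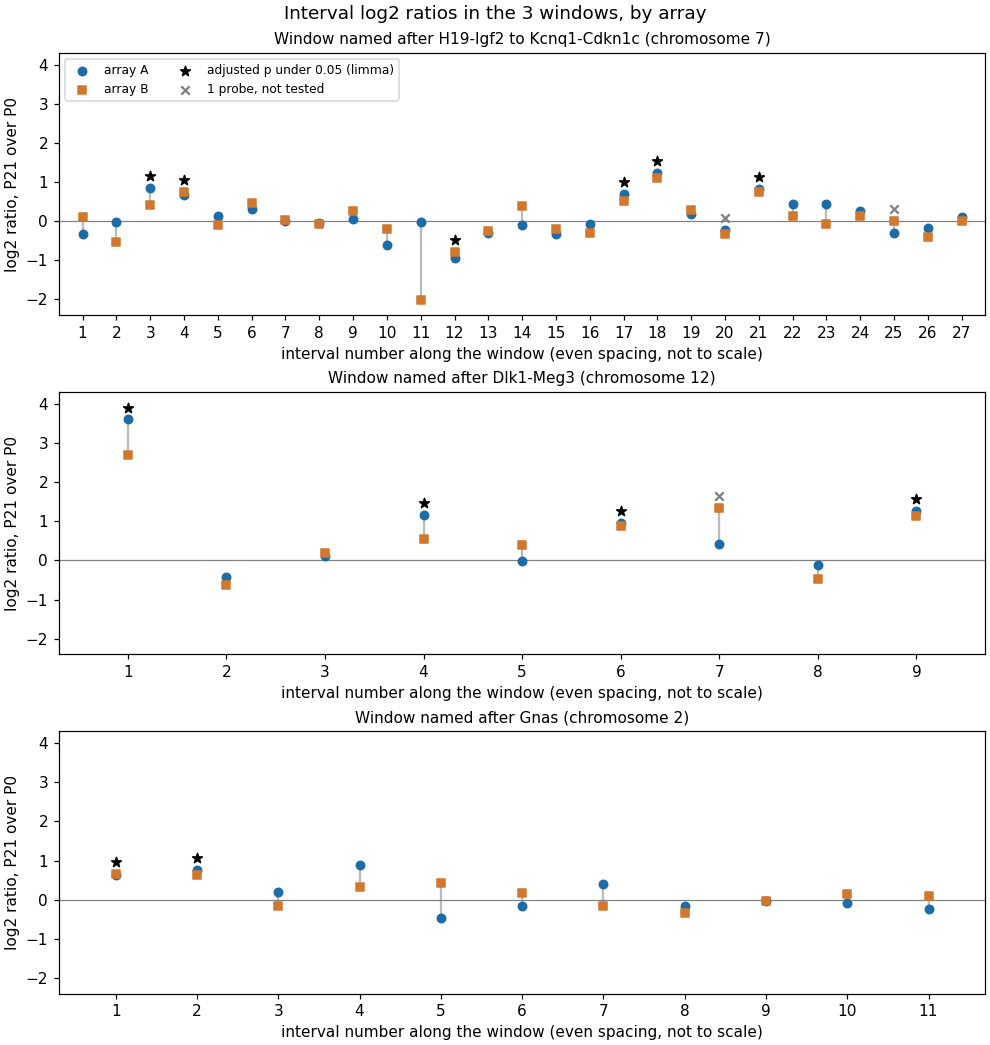
Mean log2 ratio of P21 over P0 (y axis) for every interval of the 3 windows, numbered along each window (x axis, not to scale), with circles for array A, squares for array B and a grey line between them. Stars mark the 12 intervals with a limma adjusted p under 0.05 and crosses the 3 runs of 1 probe; interval 1 of the chromosome 12 window stands above all others, and interval 11 of the chromosome 7 window has the widest distance between arrays.

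The median over the intervals describes each window as a whole, with no test. The intervals of the Dlk1-Meg3 window had a median log2 ratio of 0.53 for array A and 0.46 for array B, which averaged 0.49 ± 0.046 (SD, n = 2), against -0.02 and -0.03 over all intervals. The H19-Igf2 to Kcnq1-Cdkn1c window had medians of 0.05 and 0.03, and the Gnas window of -0.03 for array A and 0.14 for array B. The Dlk1-Meg3 median rests on 8 intervals and moved to 0.12 when the window was widened by 100 kb at both ends. It was 0.24 when the window was narrowed by as much and 0.24 with probes required to be well above background. With normexp background correction and loess it was 0.17. Within 1 Mb on either side of that window, 5 of 53 intervals were called higher and 1 lower. The flanks of the chromosome 7 window held 4 higher and 1 lower among 37, and those of the chromosome 2 window 3 higher and 3 lower among 32.

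**Figure D2:**
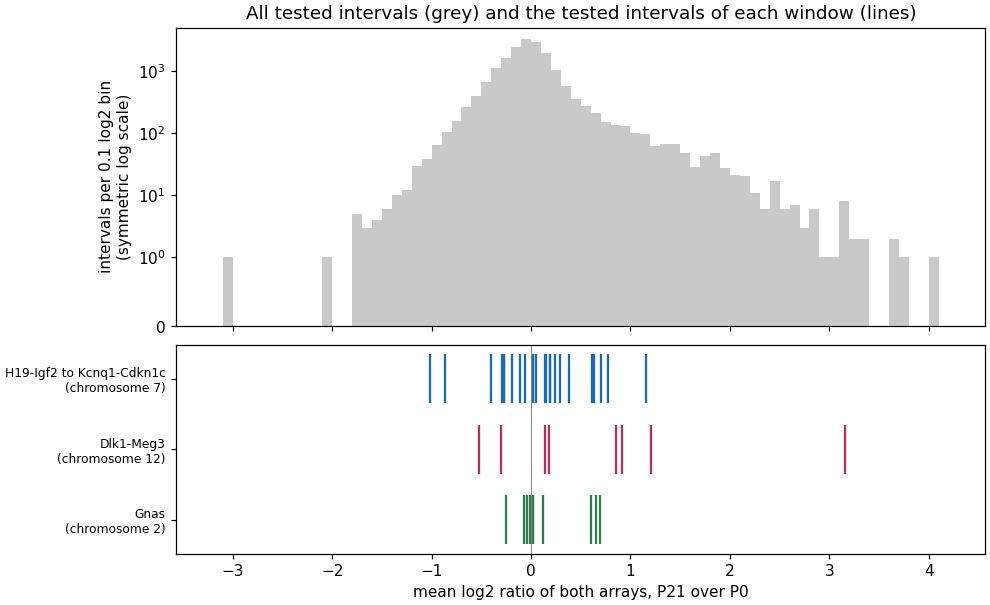
Upper panel, number of all 18761 tested intervals per bin of mean log2 ratio of both arrays, P21 over P0 (y axis, symmetric log scale); lower panel, 1 line for each tested interval of the 3 windows on the same x axis. Most window intervals lie near 0, and the Dlk1-Meg3 window has 1 interval at 3.15, far to the right of the bulk.

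In the Dlk1-Meg3 window the interval at chromosome 12 from 109885926 to 109886570 (interval 1) had by far the largest ratio of the 3 windows. The median processed signal of its 4 probes was 7786 (array A) and 5866 (array B) for P21, against 639 and 928 for P0 (arbitrary fluorescence units). Both P21 values lay above both P0 values, a property whose share over all intervals is not given here. The log2 ratio was 3.61 (array A) and 2.70 (array B), with a mean of 3.15 ± 0.64 (SD, n = 2), an 8.90-fold higher signal at P21 with a limma adjusted p of 0.000492. With normexp and loess the log2 ratio was 2.67. Its probes were nearly alike, with log2 ratios between 3.54 and 3.67 on array A and between 2.59 and 2.79 on array B. Each of the 4 was called higher when probes were tested singly (limma adjusted p 0.0385 to 0.0456 over all 89726 probes), against 2.1% of all probes called higher and 0.0925% called lower. The interval mean is made of these same probes, so their calls are not added support for it. Likewise, probes of 1 interval that lie the same way are not replicates, here and below. The share of all intervals whose probes all lie the same way is not given here.

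Intervals 2, 3 and 5 along the chromosome did not share this rise. At 109908096 to 109909285, 21525 bp further on, the log2 ratio was -0.42 (array A) and -0.63 (array B), and all 4 probes were lower at P21 on both arrays. This interval did not pass the test (-0.52 ± 0.15, limma adjusted p = 0.0559). It was called lower in 3 alternatives, with loess on the processed signals, with probes required to be well above background in both channels, and with gaps of up to 1000 bp (limma adjusted p 0.0367, 0.0191 and 0.0382). Signals of the interval from 109942342 to 109943170 were close at both ages, 17997 and 15470 for P21 against 16220 and 13353 for P0, with log2 ratios of 0.10 and 0.18. The interval from 110009959 to 110010689 had log2 ratios of -0.02 and 0.38 and did not pass either (limma adjusted p = 0.548).

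Between these, the interval from 109992613 to 109993608 was called higher (limma adjusted p = 0.0272), but most of its probes were at the limit of detection. At 2 of its 4 probes neither age was well above background on either array. At the probe from 109993549 to 109993608 P21 was well above background on both arrays and P0 on neither, with processed signals of 87.3 and 61.3 for P21 against 19.7 and 17.0 for P0. The lowest signals well above background, after loess and Aquantile normalisation, set a bound of at least 3.02-fold higher at P21, which was not tested. The log2 ratio of this probe, which uses the dim P0 signals, was 2.15 (array A) and 1.85 (array B). Tested singly, that ratio had a limma adjusted p of 0.0388. The remaining probe had log2 ratios of 0.53 for array A and -0.32 for array B. The interval did not pass with normexp and loess (limma adjusted p = 0.524).

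Toward the far end of the Dlk1-Meg3 window signal was again higher at P21. The interval from 110359043 to 110359446 (interval 6) had median signals of 1386 and 1382 for P21, against 570 and 496 for P0. All 5 of its probes were higher at P21 on both arrays, and the log2 ratio was 0.91 ± 0.057 (SD, n = 2), a 1.88-fold difference (limma adjusted p = 0.00625). The lone probe from 110360005 to 110360059 could not be tested as an interval and had log2 ratios of 0.43 for array A and 1.35 for array B. At 110360756 to 110361214, 696 bp beyond that probe, the interval of 2 probes had -0.12 on array A and -0.48 on array B and did not pass (limma adjusted p = 0.274). Its nearer probe had 0.39 and -0.25, and its farther probe -0.63 and -0.71.

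The last interval of the window, from 110397206 to 110397525 (interval 9), had signals of 22742 and 14874 for P21, against 8704 and 7436 for P0. Its log2 ratio was 1.26 (array A) and 1.14 (array B), with a mean of 1.20 ± 0.082 (SD, n = 2), or 2.30-fold higher at P21 (limma adjusted p = 0.0021). Its 4 probes had mean log2 ratios between 1.19 and 1.23. This interval and interval 1 passed in each of the 12 alternatives that gave a test for them.

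**Figure D3:**
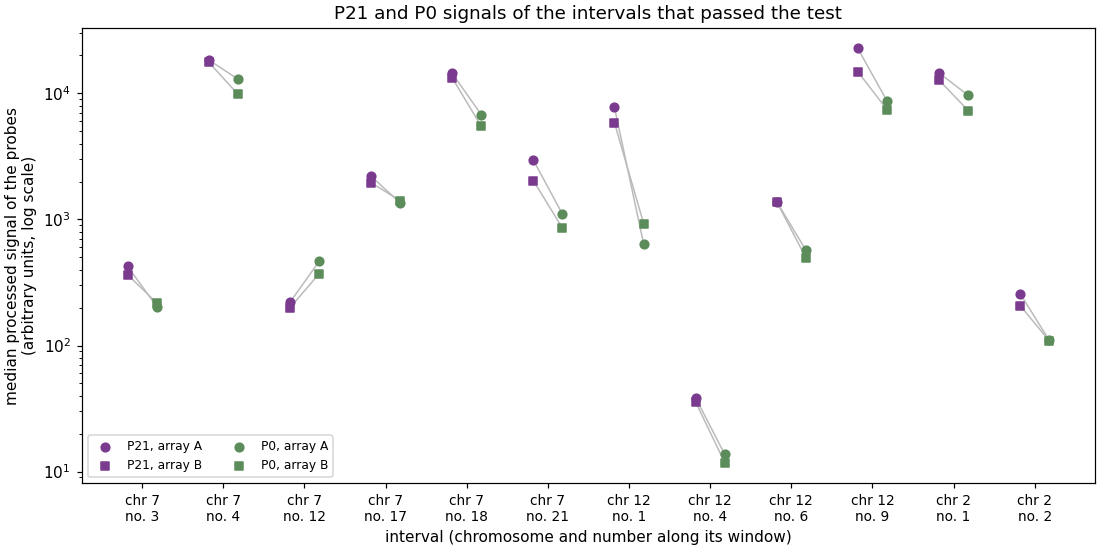
Median processed signal of the probes (y axis, arbitrary units, log scale) at P21 (purple) and P0 (green) for the 12 intervals that passed the test, with circles for array A and squares for array B and a line joining the ages of each array. Signals of P21 lie above those of P0 on both arrays except in interval 12 of the chromosome 7 window; in interval 4 of the chromosome 12 window most P0 signals are not well above background.

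In the H19-Igf2 to Kcnq1-Cdkn1c window the largest ratio was at chromosome 7 from 143152961 to 143153240 (interval 18). Its median signals were 14438 and 13331 for P21, against 6772 and 5467 for P0. The log2 ratio was 1.23 (array A) and 1.09 (array B), with a mean of 1.16 ± 0.094 (SD, n = 2), a 2.24-fold higher signal at P21 (limma adjusted p = 0.00247). The neighbouring interval from 143150083 to 143150407 (interval 17), separated by 2553 bp, was also called higher. Its signals were 2208 and 1960 for P21, against 1351 and 1409 for P0, and its log2 ratio was 0.61 ± 0.12 (limma adjusted p = 0.0316). All 4 probes of both intervals had more signal at P21 than at P0 on either array. The adjoining interval on the other side, from 143137905 to 143138976, had log2 ratios of -0.08 and -0.31 and did not pass (limma adjusted p = 0.461).

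Near the start of the same window the interval from 142352515 to 142352781 (interval 4) had signals of 18439 and 17716 for P21, against 12987 and 9839 for P0. Its log2 ratio was 0.71 ± 0.066 (SD, n = 2), with all 4 probes higher at P21 on both arrays (limma adjusted p = 0.0169). The interval from 142264984 to 142266923 (interval 3) also passed, with 0.85 for array A and 0.41 for array B (0.63 ± 0.31, limma adjusted p = 0.0463). Only 5 of its 8 probes were higher on both arrays, and its call was lost with normexp and loess (log2 ratio 0.36, limma adjusted p = 0.265). The interval before it, from 142250804 to 142251645, had -0.03 and -0.54 and did not pass.

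The lower interval of the windows lay at chromosome 7 from 142862405 to 142863843 (interval 12). Its median signals were 220 and 199 for P21, against 465 and 371 for P0. All 6 probes were lower at P21 on both arrays, with a log2 ratio of -0.95 for array A and -0.79 for array B (-0.87 ± 0.11, SD, n = 2), or 1.83-fold lower at P21 (limma adjusted p = 0.00801). The 2 probes at its far end had the lowest mean log2 ratios, -1.41 and -1.31, and neither passed singly (limma adjusted p = 0.173 and 0.118). With normexp and loess the ratio was -0.40 and the interval no longer passed (limma adjusted p = 0.183).

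Some intervals held probes that differed among themselves more than the arrays did. In the interval at chromosome 7 from 143236010 to 143237875 (interval 21) the first 3 of 7 probes had mean log2 ratios between -0.72 and -0.16. The following 4 probes, from 143236960 to 143237875, had mean log2 ratios between 1.43 and 1.88. All 4 were called higher singly (limma adjusted p 0.0385 to 0.0467), and their mean was 1.59 (array A) and 1.68 (array B). The step lies between the probe starting at 143236719, with -0.49 and -0.94, and the probe starting at 143236960, with 1.43 on both arrays. The value over the whole interval, 0.78 ± 0.060 (limma adjusted p = 0.0117), averages these stretches. With gaps of at most 250 bp the last 3 probes formed an interval of their own with a log2 ratio of 1.70 ± 0.082 (limma adjusted p = 0.000235).

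A step of the same kind was seen in the interval at chromosome 7 from 142468461 to 142471086 (interval 6), which was chosen for description after its values were seen. As a whole its 15 probes gave 0.39 ± 0.10 and did not pass (limma adjusted p = 0.124). The first 11 probes had mean log2 ratios between -0.67 and 0.22. The last 4, starting at 142470490, 142470709, 142470819 and 142471027, had 1.06, 1.53, 1.52 and 1.43 for array A and 1.16, 2.00, 2.06 and 2.13 for array B. At the last of these the signals were 731 and 1009 for P21, against 271 and 231 for P0. Of the 4, the probe from 142470709 to 142470759 was called singly (limma adjusted p = 0.0489). With gaps of at most 250 bp the 11 probes from 142469134 formed an interval that passed (log2 ratio 0.62 ± 0.23, limma adjusted p = 0.0365). The next interval, 2254 bp further, had 0.00 for array A and 0.03 for array B.

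**Figure D4:**
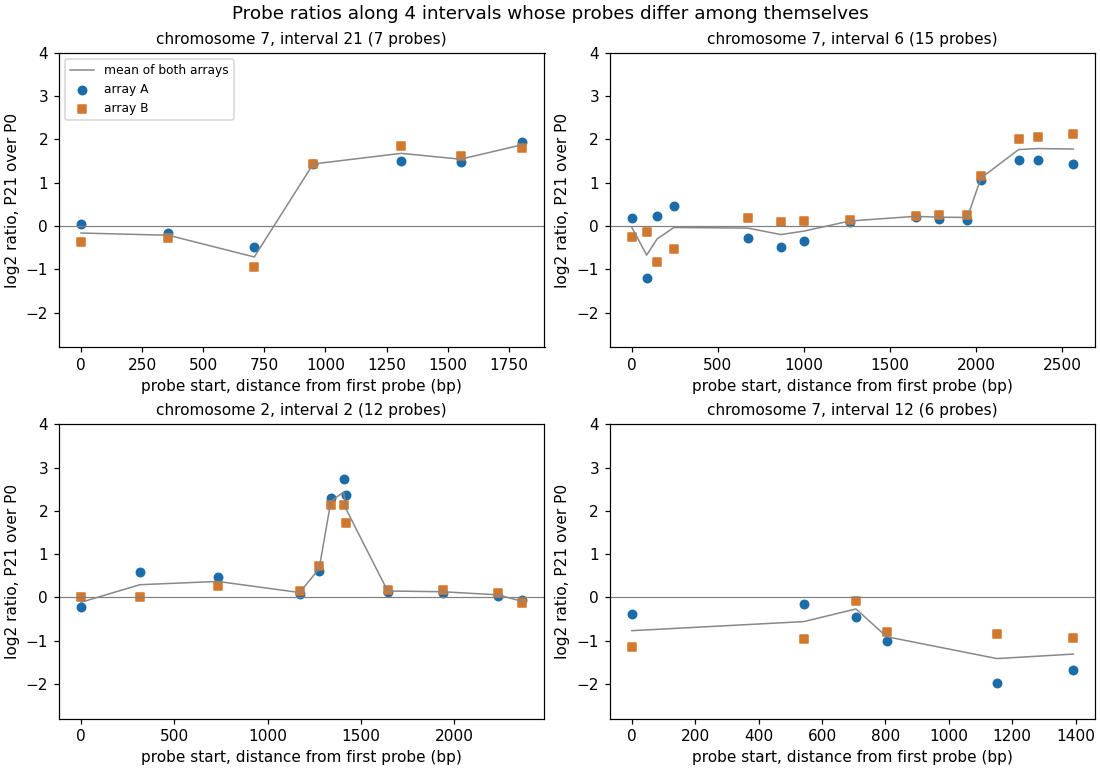
Log2 ratio of P21 over P0 of single probes (y axis) by the distance of the probe start from the first probe of its interval (x axis, bp), for 4 intervals, with circles for array A, squares for array B and a grey line for their mean. In intervals 21 and 6 of the chromosome 7 window the last 4 probes stand above the others on both arrays, in interval 2 of the chromosome 2 window 3 probes stand out, and in interval 12 of the chromosome 7 window all probes lie below 0.

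In the Gnas window both called intervals lay at its start. The interval at chromosome 2 from 173703963 to 173704567 (interval 1) had signals of 14570 and 12769 for P21, against 9651 and 7318 for P0. Its log2 ratio was 0.63 (array A) and 0.67 (array B), with a mean of 0.65 ± 0.025 (SD, n = 2), with all 4 probes higher at P21 on both arrays (limma adjusted p = 0.0222). The interval from 173716690 to 173719099 (interval 2) had 12 probes and a log2 ratio of 0.69 ± 0.099 (limma adjusted p = 0.0194). The high ratios within it belonged to 3 neighbouring probes.

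The probes starting at 173718029, 173718097 and 173718110 had log2 ratios of 2.30, 2.74 and 2.37 for array A and 2.14, 2.14 and 1.71 for array B. At the first of them the signals were 652 and 643 for P21, against 132 and 145 for P0. The first 2 of the 3 were called higher singly (limma adjusted p 0.0385 and 0.0396). The probe starting at 173717966, just before them, had 0.60 and 0.73, and the probe starting at 173718333, just behind them, had 0.13 and 0.16. At 3 other probes of the interval neither age was well above background. The median over its probes was 0.23 and did not pass (limma adjusted p = 0.35), and with normexp and loess the interval no longer passed either (log2 ratio 0.29, limma adjusted p = 0.255).

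The other 9 intervals of the Gnas window did not pass the test. The nearest to passing, from 173769886 to 173770732 (interval 4), had 0.87 for array A and 0.33 for array B, with all 4 probes higher at P21 on both arrays (limma adjusted p = 0.068). It was described after its values were seen, and it passed in 4 alternatives, among them loess on the processed signals (limma adjusted p = 0.026). From there to the end of the window the mean log2 ratios of 7 intervals ran from -0.25 to 0.12. The interval from 174087063 to 174087339 had almost equal signals, 8626 and 7734 for P21 against 8703 and 7817 for P0, and a log2 ratio of -0.04 ± 0.0082. The interval from 174300546 to 174301515 had 18215 and 15607 for P21 against 18465 and 15259 for P0, with log2 ratios of -0.09 and 0.14. A p that misses the threshold does not show that the ages were equal at these places.

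At several places in the windows the arrays gave different ratios. Of the 44 intervals 12 had opposite signs on the arrays, against 34.8% of all intervals. The absolute difference between arrays had a median of 0.22 log2 units, against 0.20 over all intervals. The widest difference was at chromosome 7 from 142861470 to 142861811 (interval 11), the 1 interval of the windows whose arrays differed by over 1 log2 unit, against 1.55% of all intervals. Its signals were 647 (array A) and 141 (array B) for P21, against 663 and 513 for P0. The P21 signal of array B thus stood apart from the other 3. The log2 ratio was -0.02 (array A) and -2.01 (array B) (limma adjusted p = 0.188). Its neighbour 593 bp further is interval 12, which was lower on both arrays.

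The interval with the most probes, 19 at chromosome 7 from 143268492 to 143271443 (interval 23), also differed between arrays. On array A all of its probes were above 0, with an interval mean of 0.45, while on array B the mean was -0.06. Of its probes 7 were above 0 on both arrays, the first 4 and the last 3. The first 4 lay between 0.77 and 1.05 on array A and between 0.02 and 0.07 on array B. The last 3 had 0.46, 0.35 and 0.34 for array A and 0.37, 0.55 and 0.60 for array B. The interval of 14 probes at chromosome 2 from 173971345 to 173973348 (interval 7) had 0.40 for array A and -0.17 for array B. Neither passed (limma adjusted p = 0.552 and 0.764).

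Since the dyes were exchanged, opposite signs of the ratio always mean that the same dye was higher on both arrays. By the interval means this was green in interval 23 of chromosome 7 and interval 7 of chromosome 2. In some bright intervals it was red. In the interval at chromosome 2 from 173927681 to 173927888 (interval 5) the median signal was 38721 (array A) and 61821 (array B) for P21, against 62403 and 41099 for P0. The red channel was the higher one on both arrays, so the log2 ratios were -0.46 and 0.43 and their mean -0.01. In the interval from 173941416 to 173943162 (interval 6), described after its values were seen, the probe starting at 173942659 showed the same, with 33365 and 86948 for P21 against 78205 and 43053 for P0. The 4 last probes of the same interval had log2 ratios between -0.28 and 0.24 on either array. The interval at chromosome 7 from 143074877 to 143075316 (interval 14) also had opposite signs, -0.11 and 0.38. That from 142770532 to 142771174 (interval 9) had 0.05 and 0.26, above 0 on both arrays. Whether the dye accounts for these differences was not tested.

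**Figure D5:**
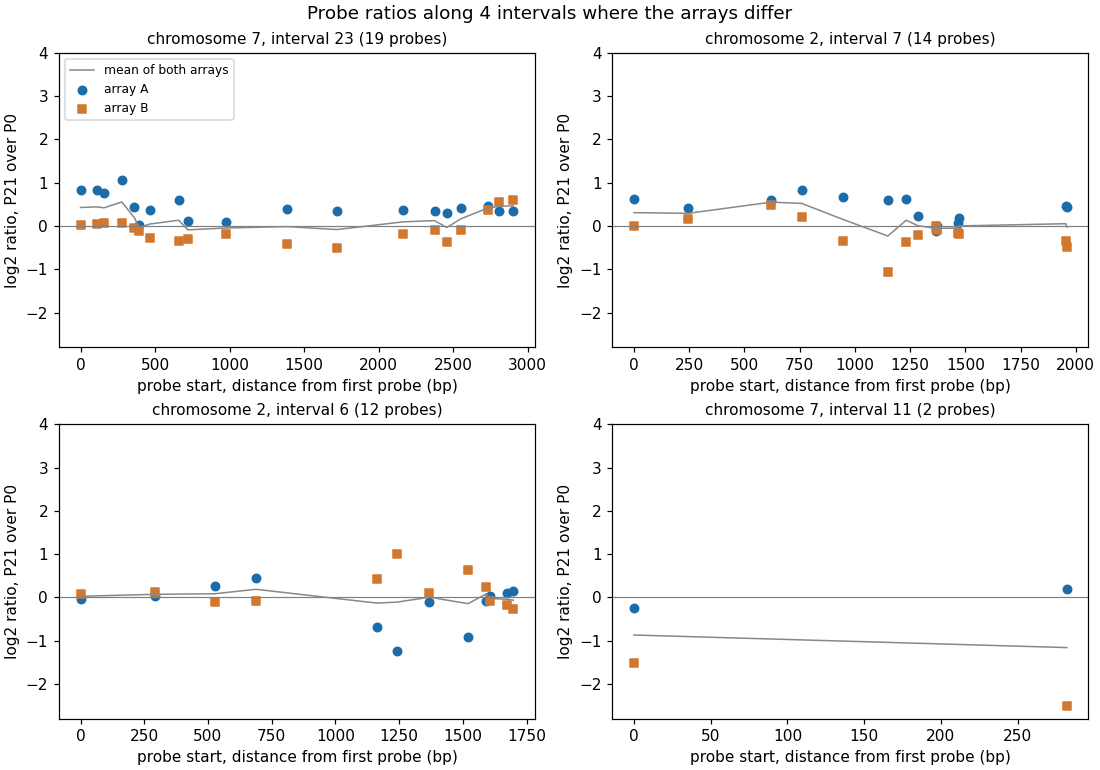
Log2 ratio of P21 over P0 of single probes (y axis) by distance of the probe start from the first probe (x axis, bp) in 4 intervals, with circles for array A, squares for array B and a grey line for their mean. In interval 23 of the chromosome 7 window array A lies above array B over most of the interval, in interval 6 of the chromosome 2 window the arrays part in opposite directions at some probes, and in interval 11 of the chromosome 7 window array B alone is far below 0.

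None of the intervals not yet described passed the test. At chromosome 7 from 142778378 to 142779465 (interval 10, described after its values were seen) all 4 probes were lower at P21 on both arrays, with median signals of 211 and 278 for P21 against 315 and 306 for P0. Its log2 ratio was -0.61 and -0.19 on the arrays, or -0.40 ± 0.30 (SD, n = 2, limma adjusted p = 0.165). In the H19-Igf2 to Kcnq1-Cdkn1c window the interval from 143189317 to 143190062 (interval 19), between the rises at intervals 18 and 21, had 17497 and 15048 for P21 against 15081 and 12373 for P0. Its log2 ratio of 0.24 ± 0.061 did not pass (limma adjusted p = 0.326), although all 4 probes were higher at P21 on both arrays. The lone probes from 143235171 to 143235230 and from 143600430 to 143600474 were not tested and had mean log2 ratios of -0.28 and -0.15. Over all 44 intervals 19 were above 0 on both arrays and 13 below 0 on both, against 29.2% and 35.8% of all intervals. Of the 239 probes left after the flags 96 were above 0 on both arrays, against 28.0% of all probes. Singly tested with limma, 12 of them were called higher and 0 lower at an adjusted p under 0.05, against 2.1% and 0.0925% of all probes.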

How the data were processed

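The windows, intervals and settings were chosen with earlier results of these data known. Per the file headers, scanning used Feature Extraction 10.5.1.1, and the submitters' processing notes give version 9.1.3.1. The deposited log10 ratios compare the red with the green channel after the scanner software's background and dye steps; the headers list linear dye factors and spatial detrending. The deposited intensity values are linear spot signals and backgrounds. The authors' processed table gave the same log10 ratios with array A turned (largest difference 0.00496).

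Here each log10 ratio was put on the log2 scale, oriented as P21 over P0 and centred on its array's median. Control spots were dropped, and 800 of 90535 other spots carried an outlier flag and were dropped too, 2 of them in the windows; 89726 probes remained. Spots well above background made up 94.2% (P21) and 95.3% (P0) on array A, and 93.8% (P21) and 93.9% (P0) on array B, and 0 spots were saturated. The number of arrays limits the precision.

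Interval means were tested two-sided against 0 with limma 3.58.1 in R 4.3.3 (lmFit, eBayes), fitted over the whole array. The eBayes step draws each interval's variance toward that of all intervals (prior degrees of freedom 5.58). Printed SDs are the intervals' own, so p does not follow them alone. The code was also run on intervals simulated from the fitted variance with independent errors. That run checks the code and not the p-values of these arrays. Both arrays share 1 slide. Intervals were named when called, holding the most probes, differing most between arrays, or among the 3 brightest not called of a window; neighbours and a few others were added after their values were seen. Alternatives covered background correction, loess, centring, filters, gaps, window edges, the moderation of the variance, the median of probes and single probes.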

Additional observations from a re-analysis of the deposited data

How the results depend on the processing

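With normexp and loess 8 intervals were called higher and 0 lower (limma), against 11 and 1 in the reported values, and with normexp without loess 2 and 0. The calls higher ran from 8 of 34 intervals (windows narrowed) to 13 of 52 (gaps of up to 250 bp) in the remaining alternatives. They were 11 of 54 with the windows widened, 12 of 40 with gaps of up to 1000 bp and 12 of 239 for single probes. The share of all intervals called is not given for these alternatives. A change in the windows can therefore not be told from one over the whole array. The calls lower were 2 with loess on processed signals, 3 with probes well above background, 2 with gaps of up to 250 bp, 2 with gaps of up to 1000 bp and 0 for single probes, where 0 means no adjusted p under 0.05. By the rule of size 5 intervals were higher and 1 lower with 250 bp gaps, and leaving out either array gave 3 to 4 higher and 0 to 1 lower. The median of the H19-Igf2 to Kcnq1-Cdkn1c window was -0.014 with normexp alone, 0.084 centred on the mode, 0.031 and 0.073 with gaps of 250 and 1000 bp, 0.063 widened, 0.083 narrowed by 100 kb and 0.019 over runs of 2 to 4 probes. That of the Dlk1-Meg3 window was 0.42 with normexp alone, 0.17 when loess was added, 0.24 with probes well above background, 0.91 and 0.58 with gaps of 250 and 1000 bp, 0.12 widened, 0.24 narrowed and 0.24 over runs of 2 to 4 probes. The Gnas window had -0.24 with normexp alone and 0.18 narrowed. Leaving out array A or B gave medians of 0.035 to 0.047, 0.46 to 0.53 and -0.03 to 0.14 for these windows. With normexp alone the sign turned at chromosome 12 from 109992613 (-0.22) and chromosome 2 from 173716690 (-0.019), and the cause was not tested. With 1000 bp gaps the run from 110360756 joined its higher neighbours and gave 0.61. Taking the median of the probes lost the calls of 6 intervals. The ages are paired within each array in every value, and no further replicate block could be fitted to 2 arrays. Dim probes limit these results: 10 of the 239 probes were not well above background in every channel.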
